A study of Homo sapiens with 96 samples.

Results

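A549 is an established human lung adenocarcinoma cell line. The series profiled whole transcriptomes of A549 cells treated with water or ethanol extracts of Paeoniae Radix (PR, peony root) or with single ingredients, and its title names the Aurora B pathway. The comparison described here is the first dose step of the ethanol extract. It sets the 3 libraries of cells given 100 µg/mL (medium dose) against the 3 libraries of cells given 20 µg/mL (low dose), all from batch 1, which together are 6 of the 96 libraries of the series. The water extract at 100 µg/mL against 20 µg/mL, 3 libraries each from the same batch, is set beside it, and so is the next step of the ethanol extract, 500 µg/mL (high dose) against 100 µg/mL. The sources used here give neither the vehicle of the extracts nor the length of exposure. Nothing in the labels says whether replicates were separate cultures, so p-values cover only how these libraries vary, and that variation may be technical.

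Proteins bound for the cell surface or for secretion are folded in the endoplasmic reticulum (ER). When unfolded protein accumulates there, the sensors IRE1, PERK and ATF6 start the unfolded protein response, in which XBP1 and ATF6 raise the transcription of chaperones and folding enzymes and ATF4 raises that of amino acid synthesis and stress genes. Many of the chaperone genes carry an ER stress response element (ERSE) just upstream of their start. TGF-beta signals through SMAD proteins to genes of the extracellular matrix and of cell migration, and A549 cells are widely used to study the epithelial to mesenchymal change it brings about.

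The 6 libraries held 22.8 to 28.1 M expected counts, and the 21 batch 1 libraries held 17.9 to 28.1 M expected counts. The epithelial label held: KRT7, KRT8 and KRT18 averaged 2390, 2150 and 1740 CPM (counts-per-million, on TMM library sizes) at 100 µg/mL, against 2460, 2280 and 1820 CPM at 20 µg/mL, and 7 of 8 epithelial markers reached 1 CPM in both groups, the exception being ESRP1. None of 4 endothelial and none of 3 erythroid markers reached 1 CPM, and of 6 leukocyte markers CD68 and CD14 did. Mitochondrially encoded transcripts took 15.6 to 17.2% of counts at 100 µg/mL and 14.5 to 18.6% at 20 µg/mL, so the groups overlapped. Between libraries of 1 group the counts differed by more than sampling noise, with chi-square per degree of freedom of 4.12 to 4.14 at 100 µg/mL and 6.93 to 17.5 at 20 µg/mL.

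The step from 20 to 100 µg/mL was small and went both ways. Of 16854 genes tested, 301 passed an adjusted p under 0.05 in edgeR's quasi-likelihood test (1.79%), with 141 higher at 100 µg/mL (0.837%) and 160 lower (0.949%). Most changes were slight: 28 of the 301 reached 1.5-fold and 6 reached 2-fold. Levels did not overlap between the groups for all 141 of the higher genes and 159 of the 160 lower ones (SKIL overlapped), while over all genes 8.38% were separated upward and 7.92% downward. In the water extract the same dose step gave 2 genes of 16854 (0.0119%), both lower. Deviations of same-numbered libraries of the 2 groups from their group means correlated at 0.287 to 0.36. The labels do not say what a replicate number shares. With that number as a block the ethanol step gave 516 genes, and all 301 were among them. Without replicate 1, 2 or 3 of the 100 µg/mL group it gave 183, 160 and 128 genes, and without replicate 1, 2 or 3 of the 20 µg/mL group 375, 175 and 176. Fitted on the 6 libraries alone it gave 78.

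The ER chaperones and folding enzymes moved upward together. Of 25 members tested, 14 rose and none fell, against 0.837% of all genes called higher. The log2 change was above 0 in all 25 members (median 0.20, range 0.02 to 0.45), while the median over all genes was 0.00. The promoters of several of these genes hold the ERSE, which reads CCAAT, then any 9 bases, then CCACG, and was searched on both strands from 250 bases before to 50 bases after the RefSeq gene start (build GRCh38.p14). It was found in 5 of the 13 risen members with a promoter in that table (38.5%), against 14 of 11715 promoters of tested genes (0.12%). Over the whole list it was in 6 of 23 promoters (26.1%), and among all risen genes in the same 5, of 112 (4.46%). Many chaperone genes are known to carry the element. A high share in this list was therefore given beforehand, and it is no test of the dose step. The 250 bases before the start of HSPA5 (chr9:125241344-125241593, minus strand) and HSP90B1 (chr12:103930160-103930409, plus strand) are printed because their mRNAs are the best known readouts of this response. Only exact ERSE matches are in capitals. Variants that differ by a base or in spacing were not searched, so more elements may be present. In HSP90B1 the second match reads on the opposite strand.
HSPA5: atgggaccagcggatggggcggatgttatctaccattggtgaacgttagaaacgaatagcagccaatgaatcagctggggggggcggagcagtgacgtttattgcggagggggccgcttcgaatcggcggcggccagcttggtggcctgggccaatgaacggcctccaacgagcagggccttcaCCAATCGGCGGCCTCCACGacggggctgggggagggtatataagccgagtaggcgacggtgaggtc
HSP90B1: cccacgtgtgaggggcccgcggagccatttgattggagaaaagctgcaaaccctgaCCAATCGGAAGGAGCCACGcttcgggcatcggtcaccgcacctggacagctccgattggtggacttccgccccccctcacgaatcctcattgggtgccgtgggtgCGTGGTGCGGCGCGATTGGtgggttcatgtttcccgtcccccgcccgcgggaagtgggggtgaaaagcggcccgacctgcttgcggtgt

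The other 3 risen members with the element were CALR (chr19:12938374-12938412), CANX (chr5:179698768-179698806) and CRELD2 (chr22:49918544-49918582), whose elements are shown with 10 bases on either side, read on the strand that spells the motif. HYOU1 held the related element ERSE-II, which reads ATTGG, any base, then CCACG, at chr11:119057264-119057294 and again at chr11:119057370-119057400, where it overlaps a UPRE (TGACGTGG). HERPUD1, from the ER degradation list, held an ERSE-II at chr16:56932015-56932045. ERSE-II was found in 0.0939% and the UPRE in 0.939% of promoters of tested genes.
CALR: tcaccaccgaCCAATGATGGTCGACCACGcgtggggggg
CANX: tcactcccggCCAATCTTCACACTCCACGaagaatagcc
CRELD2: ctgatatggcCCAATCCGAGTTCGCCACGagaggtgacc
HYOU1: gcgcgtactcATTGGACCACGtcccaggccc
HYOU1: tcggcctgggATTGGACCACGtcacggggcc
HERPUD1: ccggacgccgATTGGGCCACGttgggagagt

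Read the other way, 14 tested genes carried an ERSE in this window, and 5 of them rose and none fell. Their log2 change was above 0 in 13 of 14, with a median of 0.10, against a median of 0.01 at the water extract's step. The 9 not called were ALG12, EIF2A, ERO1B, FICD, SERP1, TMEM120A, TRIM5, XBP1 and ZNF17, at 0.00 to 0.15. Of the 11 genes with an ERSE-II, HYOU1 and HERPUD1 rose and none fell, and the log2 change was above 0 in 5 of 11, with a median of 0.00. A match is a description of the letters and not a binding site.

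PDIA4, an ER protein disulfide isomerase (chr7:149003062-149028641 in GRCh38), stood at 376, 382 and 384 CPM at 100 µg/mL, against 304, 313 and 307 CPM at 20 µg/mL. The 3 libraries at 100 µg/mL lay above every library at 20 µg/mL, by 0.30 ± 0.03 (log2, SE; edgeR adjusted p = 5.71e-06). HSP90B1, the ER form of HSP90, stood at 1190, 1190 and 1140 CPM, against 948, 979 and 949 CPM at 20 µg/mL (log2 0.29 ± 0.04, adjusted p = 5.76e-05). P4HB, a disulfide isomerase that is also a subunit of prolyl 4-hydroxylase, stood at 728, 726 and 731 CPM, against 611, 619 and 591 CPM (log2 0.26 ± 0.03, adjusted p = 1.56e-05). None of these 3 genes had overlapping groups.

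HSPA5, the HSP70 of the ER that binds and holds back the stress sensors, stood at 745, 722 and 721 CPM at 100 µg/mL, against 629, 643 and 644 CPM at 20 µg/mL. All 3 libraries at 100 µg/mL were higher, by 0.19 ± 0.04 on the log2 scale (edgeR adjusted p = 0.00836). CALR, a lectin chaperone of glycoproteins, stood at 661, 700 and 685 CPM, against 543, 591 and 591 CPM (log2 0.25 ± 0.04, adjusted p = 0.000302), and its partner CANX rose by a log2 of 0.14. The other risen members were the disulfide isomerases PDIA3 and PDIA6, the cochaperones DNAJB9 and DNAJC3, the nucleotide exchange factor HYOU1, the prolyl isomerase PPIB, and CRELD2 and MANF, with log2 changes of 0.20 to 0.45. The largest was that of DNAJB9, at 12.4, 11.5 and 12.4 CPM, against 10.3, 7.89 and 8.30 CPM.

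The 11 members not called included SDF2L1 at 0.36, FKBP2 at 0.19 and DNAJB11 at 0.17 (log2), and at the low end TXNDC5 at 0.02, DNAJC10 at 0.05 and the oxidase ERO1A at 0.06. Summed over the list, the level was 6830, 6800 and 6760 CPM at 100 µg/mL, against 5790, 5890 and 5880 CPM at 20 µg/mL. The count of 14 was 9 when the 6 libraries were fitted alone, and 9 without replicate 1 of the 100 µg/mL group. A bulk level cannot tell more RNA per cell from more cells that express a gene.

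**Figure D1:**
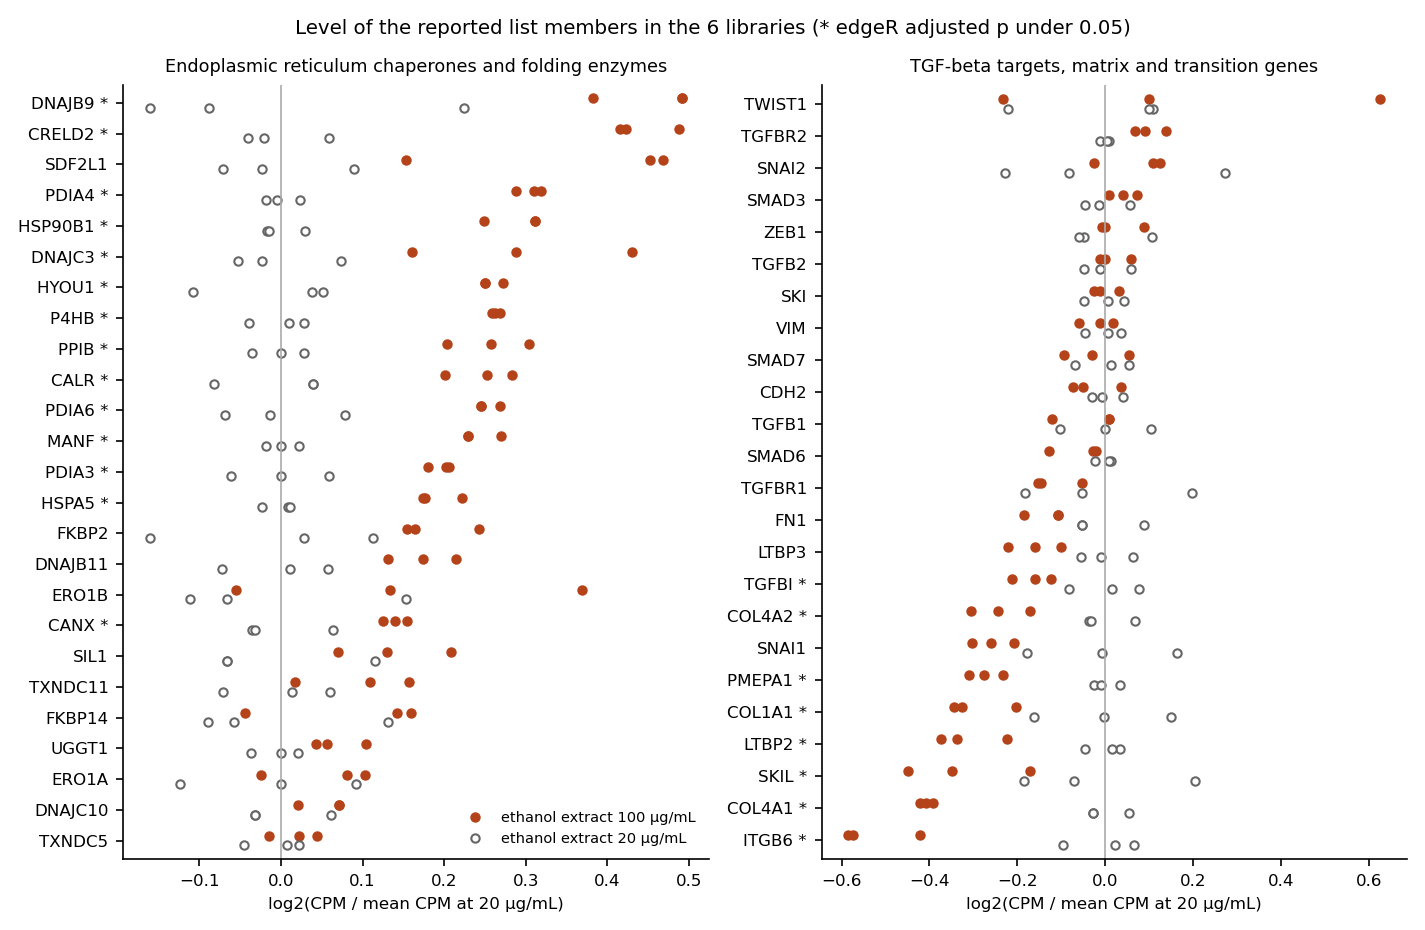
Level of the reported members of 2 gene lists in the 3 libraries at 100 µg/mL (filled points) and the 3 at 20 µg/mL (open points) of ethanol extract, as log2 of CPM over the mean CPM at 20 µg/mL. In the left panel (ER chaperones and folding enzymes) the points at 100 µg/mL lie to the right for the 14 starred genes, and in the right panel (TGF-beta targets and mesenchymal genes) to the left for the starred genes, of which SKIL alone has overlapping groups.

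None of the genes that sense and transmit ER stress was called, although most lay above 0. At this step 0.837% of all genes were called higher and 0.949% lower. At those shares a list of 16 sensors and transcription factors would hold few or no calls. The log2 change was above 0 in 14 of the 16 (median 0.10). In 5 of them every library at 100 µg/mL lay above every library at 20 µg/mL, against 8.38% of all genes. ATF4 was at 0.15 ± 0.04 (edgeR adjusted p = 0.068), EIF2AK3 (PERK) at 0.17, ERN1 (IRE1) at 0.16, DDIT3 at 0.19 and XBP1 at 0.09. Of 17 genes of ER-associated degradation 2 rose: HERPUD1, a ubiquitin-like membrane protein of the ER, at 40.9, 41.7 and 41.3 CPM against 35.3, 35.3 and 35.9 CPM at 20 µg/mL (log2 0.22 ± 0.04, adjusted p = 0.00506), and VIMP, also called SELENOS, at log2 0.26. Neither gene's groups overlapped. Of 20 genes of protein entry into the ER, SSR4, SPCS2 and SSR3 rose, at log2 0.28, 0.19 and 0.15, and all 3 calls were lost without replicate 2 of the 100 µg/mL group and without replicate 2 or 3 of the 20 µg/mL group. Single genes rose in transport between ER and Golgi (TMED10, of 20, log2 0.17) and in N-glycosylation (STT3A, the catalytic subunit of an oligosaccharyltransferase, of 19, log2 0.18).

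Of 24 ATF4 targets 5 rose and none fell (median log2 0.14), against 0.837% of all genes called higher. ASNS, asparagine synthetase, stood at 96.2, 94.4 and 96.7 CPM at 100 µg/mL, against 73.9, 72.4 and 73.8 CPM at 20 µg/mL, 2 tight groups that did not overlap (log2 0.38 ± 0.04, edgeR adjusted p = 1.33e-06). Its promoter holds the ATF4 element TGATGNAA at chr7:97872459-97872486, a motif found in 1.66% of promoters of tested genes and in 1 of the 4 risen ATF4 targets with a promoter in the table.
ASNS: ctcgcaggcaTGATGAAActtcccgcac
NUPR1, a small stress-induced nuclear protein, stood at 12.1, 13.8 and 13 CPM, against 7.18, 8.98 and 10.1 CPM (log2 0.58 ± 0.10, edgeR adjusted p = 0.00332). The serine synthesis enzymes PSAT1 and PHGDH rose by log2 0.25 and 0.28, and PCK2, the mitochondrial phosphoenolpyruvate carboxykinase, by 0.29. Of the other ATF4 targets, DDIT4 was at log2 0.05, TRIB3 at 0.09 and GDF15 at -0.03, none of them called. None of 14 amino acid transporters passed the test, and of 20 cytosolic tRNA synthetases VARS fell, by 0.22. The count of 5 was 2 without replicate 2 and 3 without replicate 3 of the 100 µg/mL group, 3 without replicate 2 and 2 without replicate 3 of the 20 µg/mL group, and 3 when the 6 libraries were fitted alone.

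Several of the largest rises outside the ER lists were of transcripts that contain or flank microRNA genes. This grouping was made after their values were seen. The change with the smallest p was that of GABRE, the epsilon subunit of the GABA-A receptor (chrX:151953124-151974680, minus strand), whose gene contains the hairpins of miR-224 and miR-452. It stood at 149, 143 and 149 CPM at 100 µg/mL, against 79.2, 84.4 and 82 CPM at 20 µg/mL, with no library between 84.4 and 143 CPM (1.80-fold, log2 0.84 ± 0.04, edgeR adjusted p = 3.81e-11). SPACA6 (chr19:51689128-51712387, plus strand), known as a sperm protein needed for fertilization, overlaps the hairpins of miR-99b, let-7e and miR-125a. It stood at 16.7, 17.1 and 17.2 CPM, against 7.84, 9.69 and 9.80 CPM (1.87-fold, log2 0.90 ± 0.09, adjusted p = 9.76e-07).

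The long noncoding RNA RP4-555D20.2 (chr3:44117299-44122365, plus strand) starts 2988 bases beyond the hairpin of miR-138-1. It stood at 114, 108 and 115 CPM, against 64.3, 67.1 and 67.7 CPM at 20 µg/mL (log2 0.76 ± 0.04, edgeR adjusted p = 6.17e-11). It overlaps RP4-555D20.1 on the minus strand, which rose by log2 0.81 and stood at 44.2, 44.2 and 47.7 CPM, against 22.1, 24.7 and 30.9 CPM, and if counting did not use strand the reads of the 2 cannot be told apart. RP11-166D19.1, a processed transcript on chromosome 11 that spans miR-100, let-7a-2 and miR-125b-1, stood at 8.65, 7.31 and 7.37 CPM, against 4.96, 3.71 and 4.85 CPM (log2 0.79 ± 0.12, adjusted p = 0.000606). C9orf3, an aminopeptidase gene that contains miR-23b, miR-27b and miR-24-1, stood at 112, 106 and 106 CPM, against 82.5, 81.5 and 71.2 CPM (log2 0.46 ± 0.05, adjusted p = 1.56e-05). In each of these genes every library at 100 µg/mL lay above every library at 20 µg/mL.

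MIR503HG, the host of miR-424 and miR-503, rose by log2 0.74 and MIR17HG, the host of the miR-17 to miR-92a cluster, by 0.69. AC083843.1, a long noncoding RNA 2247 bases from miR-30b, rose by 0.80. Of the 14 called genes at least 1.5-fold higher, 7 had a microRNA gene of the same strand inside them or within 3000 bases (50%), against 2 of the 14 at least 1.5-fold lower (14.3%) and 5.68% of tested genes with a position. Counting only those with such a gene inside or overlapping them, the shares were 5 of 14 (35.7%), 14.3% and 5.2%. The window of 3000 bases was set with these genes in view. Among all called genes the shares were 10.6% of the higher and 9.38% of the lower. MIR22HG, the host of miR-22, and H19, which contains miR-675, fell by 0.26 and 0.32. MIR99AHG, host of miR-99a, let-7c and miR-125b-2, was at 2.99, 2.07 and 2.25 CPM, against 1.37, 1.84 and 1.81 CPM at 20 µg/mL, and missed the threshold (log2 0.54 ± 0.19, edgeR adjusted p = 0.195). The processing genes DROSHA, DGCR8, XPO5 and DICER1 were at log2 -0.02, -0.14, -0.04 and -0.01 and were not called.

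Mature microRNAs were not measured in these libraries. The sequences of the main arms lying in or beside the transcripts above are given from RefSeq, with the seed (bases 2 to 8) in capitals, since transcripts on different chromosomes hold arms with the same seed. miR-99b and miR-100 share ACCCGUA, let-7e and let-7a share GAGGUAG, and miR-125a and miR-125b share CCCUGAG, the first of each pair within SPACA6 and the second within RP11-166D19.1.
hsa-miR-99b-5p: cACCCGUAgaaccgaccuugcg
hsa-miR-100-5p: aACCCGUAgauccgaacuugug
hsa-let-7e-5p: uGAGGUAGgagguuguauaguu
hsa-let-7a-5p: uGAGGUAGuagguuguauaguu
hsa-miR-125a-5p: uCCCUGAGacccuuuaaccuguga
hsa-miR-125b-5p: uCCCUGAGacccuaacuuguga
hsa-miR-224-5p: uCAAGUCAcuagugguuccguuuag
hsa-miR-452-5p: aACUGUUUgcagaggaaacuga
hsa-miR-138-5p: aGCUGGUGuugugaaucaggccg
hsa-miR-23b-3p: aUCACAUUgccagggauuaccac
hsa-miR-27b-3p: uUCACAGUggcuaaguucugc
hsa-miR-24-3p: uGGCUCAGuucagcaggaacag

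**Figure D2:**
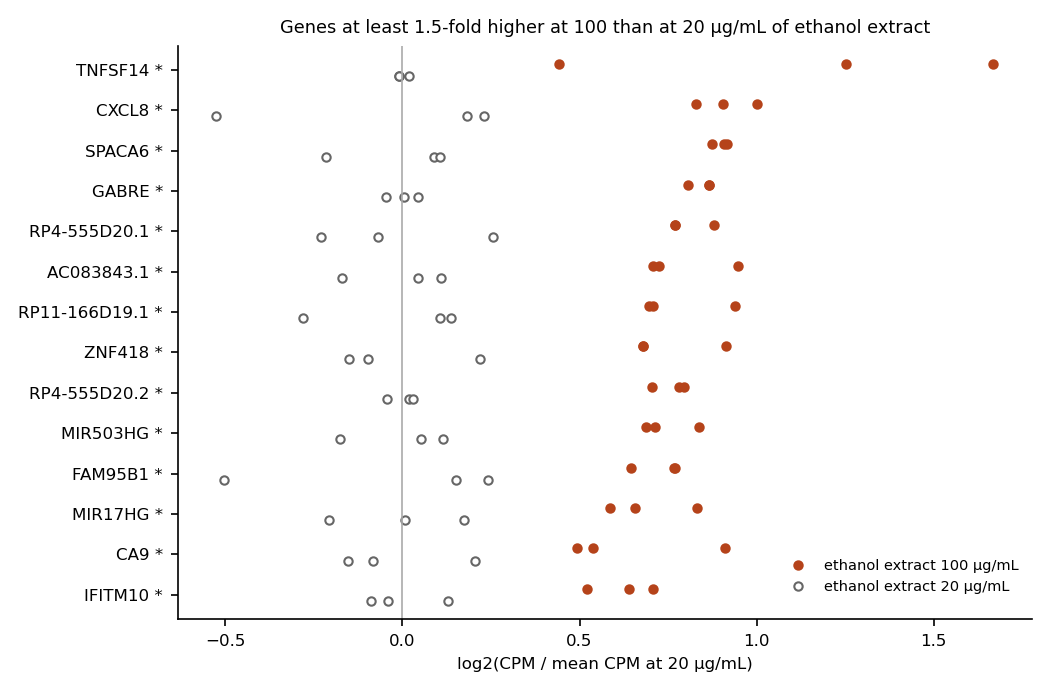
The 14 called genes at least 1.5-fold higher at 100 µg/mL (filled points) than at 20 µg/mL (open points) of ethanol extract, as log2 of CPM over the mean CPM at 20 µg/mL, 1 point per library. The groups are separate in every row, and the points of GABRE and RP4-555D20.2 are the most tightly spaced relative to their distance.

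The remaining large rises were of low or moderate level. CXCL8, a neutrophil chemokine, stood at 1.16, 1.10 and 1.24 CPM at 100 µg/mL, against 0.703, 0.430 and 0.726 CPM at 20 µg/mL (log2 0.92 ± 0.23, edgeR adjusted p = 0.0391), and its relative CXCL5 at 41.6, 39.5 and 41.6 CPM, against 32.2, 26.4 and 29.1 CPM (log2 0.48 ± 0.06, adjusted p = 1.64e-05). They were the 2 called of 16 NF-kB targets and chemokines (median log2 0.20), against 0.837% of all genes called higher. The CXCL8 call was lost when any library except replicate 1 of the 20 µg/mL group was left out, with an adjusted p of up to 0.237 over its alternatives, while that of CXCL5 held throughout. CA9, a carbonic anhydrase induced by hypoxia, rose by log2 0.67, ZNF418 by 0.76 and IFITM10 by 0.63, all 3 with an adjusted p above 0.03. TACR1 (log2 0.52), WISP1 (0.51) and KIAA0513 (0.50) completed the 12 largest rises of protein-coding genes of at least 1 CPM together with SULT1A4 (0.57), whose reads are shared with the near-identical SULT1A3 and which is therefore uncertain. TNFSF14, a cytokine of the tumour necrosis factor family below that level and chosen after its values were seen, stood at 0.998, 0.748 and 0.427 CPM, against 0.312, 0.312 and 0.318 CPM at 20 µg/mL (log2 1.19 ± 0.30, edgeR adjusted p = 0.0452).

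AGR2, an ER-resident disulfide isomerase family member that is abundant in secretory epithelia and was not on the folding list, stood at 272, 246 and 266 CPM, against 191, 180 and 198 CPM at 20 µg/mL. The groups were well apart (log2 0.46 ± 0.04, edgeR adjusted p = 5.4e-07). Among 12 iron genes TFRC and SLC40A1 rose, against 0.837% of all genes called higher. TFRC, the transferrin receptor, stood at 362, 349 and 359 CPM, against 282, 244 and 240 CPM (log2 0.48 ± 0.06, adjusted p = 1.64e-05), and SLC40A1, the iron exporter ferroportin, at 37.4, 37.5 and 38.2 CPM, against 30.5, 29.4 and 27.3 CPM (log2 0.37 ± 0.05, adjusted p = 0.000171). The ferrireductase STEAP3 fell by 0.14.

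The downward side was led by matrix and TGF-beta genes. Of 25 TGF-beta targets and mesenchymal genes 9 fell and none rose, against 0.949% of all genes called lower (median log2 of the list -0.11). COL4A1, a basement membrane collagen chain, stood at 79.3, 78.4 and 77.7 CPM at 100 µg/mL, against 102, 108 and 102 CPM at 20 µg/mL, groups that did not overlap (log2 -0.40 ± 0.03, edgeR adjusted p = 7.54e-08), and COL4A2, which overlaps it on the opposite strand, fell by 0.24. Whether strand was used in counting is not stated, so reads of their overlap cannot be told apart if it was not. PMEPA1, a TGF-beta induced inhibitor of the pathway, stood at 343, 353 and 335 CPM, against 408, 425 and 412 CPM (log2 -0.27 ± 0.03, adjusted p = 1.64e-05).

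Other members that fell were LTBP2 (log2 -0.31), a latent TGF-beta binding protein, ITGB6 (-0.53), a subunit of an integrin that activates latent TGF-beta, SKIL (-0.32), a SMAD corepressor that is itself a target, TGFBI (-0.17) and COL1A1 (-0.29). The ligands and receptors of the list did not pass: TGFB1 was at log2 -0.03, TGFB2 at 0.02, TGFBR1 at -0.11 and TGFBR2 at 0.10. SMAD7, the inhibitory SMAD induced by the pathway, was at -0.02, and the mesenchymal genes VIM, CDH2 and ZEB1 at -0.02, -0.03 and 0.03. FN1 was at -0.13 and SNAI1 at -0.25, neither called. The 6 fibroblast markers summed to 47 to 52 CPM at 100 µg/mL and 52.4 to 64.3 CPM at 20 µg/mL, most of it COL1A1, with COL1A2 and DCN at no more than 0.0651 CPM in either group. The part of these markers in the result was not tested. The count of 9 was 5 when the 6 libraries were fitted alone, and 6 without replicate 3 of the 100 µg/mL group.

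ID2, ID3 and ID4 were lower at 100 µg/mL. Among 13 ID genes and BMP targets 3 fell and none rose (median log2 -0.20), against 0.949% of all genes called lower. ID2, an inhibitor of helix-loop-helix transcription factors, stood at 87.7, 88.2 and 94.6 CPM at 100 µg/mL, against 107, 102 and 117 CPM at 20 µg/mL (log2 -0.27 ± 0.05, edgeR adjusted p = 0.0035). ID3 stood at 153, 170 and 162 CPM, against 186, 189 and 193 CPM (log2 -0.23 ± 0.04, adjusted p = 0.00197), and ID4 fell by 0.30. No library of either gene crossed over. ID1, at 173, 186 and 171 CPM against 192, 189 and 173 CPM, overlapped between the groups and was not called. With the 6 libraries of the 2 groups fitted alone none of the 3 was called, at edgeR adjusted p of 0.0628 for ID2, 0.0725 for ID3 and 0.142 for ID4, and with no filter on low counts 5 members of the list were.

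Of the transcription factors of the immediate early class, JUN stood at 33, 35 and 32.5 CPM, against 46.4, 46.9 and 44.5 CPM at 20 µg/mL (log2 -0.45 ± 0.05, edgeR adjusted p = 2.99e-06), and JUNB at 98.9, 106 and 100 CPM, against 120, 134 and 128 CPM (log2 -0.32 ± 0.05, adjusted p = 0.000323). Both sets of libraries were apart. They were the 2 that fell among 22 immediate early and ERK feedback genes, in which the phosphatase DUSP5 rose by 0.18. The shares over all genes were 0.949% lower and 0.837% higher. A loose AP-1 motif, TGANTCA with any base at N, was found in 9 of 112 promoters of the risen genes (8.04%). It was in 3 of 127 promoters of the fallen ones (2.36%) and in 4.73% of all tested promoters. In the risen ARFGEF3, ARSJ, FAS and HSPA5 the base at N was A or T. The other risen genes with a match, and all 3 of the fallen ones, held TGAGTCA or TGACTCA. Shares for that stricter form over all promoters were not counted. KLF7 fell by 0.23, alone among 12 Kruppel-like factors, and TCF7 by 0.42 among 8 Wnt feedback genes.

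Fatty acid synthesis was the remaining list with several falls. Of 16 members 5 fell and none rose, against 0.949% of all genes called lower, although the median was -0.02 (log2). ACLY, which makes cytosolic acetyl-CoA from citrate, stood at 643, 654 and 638 CPM, against 723, 739 and 711 CPM at 20 µg/mL (log2 -0.17 ± 0.03, edgeR adjusted p = 0.0031). FASN, the fatty acid synthase, stood at 355, 377 and 364 CPM, against 434, 430 and 399 CPM (log2 -0.20 ± 0.04, adjusted p = 0.00365). The desaturases FADS2 and SCD and the acyl-CoA synthetase ACSL3 fell by 0.22, 0.17 and 0.15. Of the 5 calls 3 were left without replicate 2 of the 100 µg/mL group, and 0 with the 6 libraries of the 2 groups fitted alone, where ACLY, FASN, FADS2 and SCD had edgeR adjusted p of 0.119, 0.107, 0.0512 and 0.131.

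**Figure D3:**
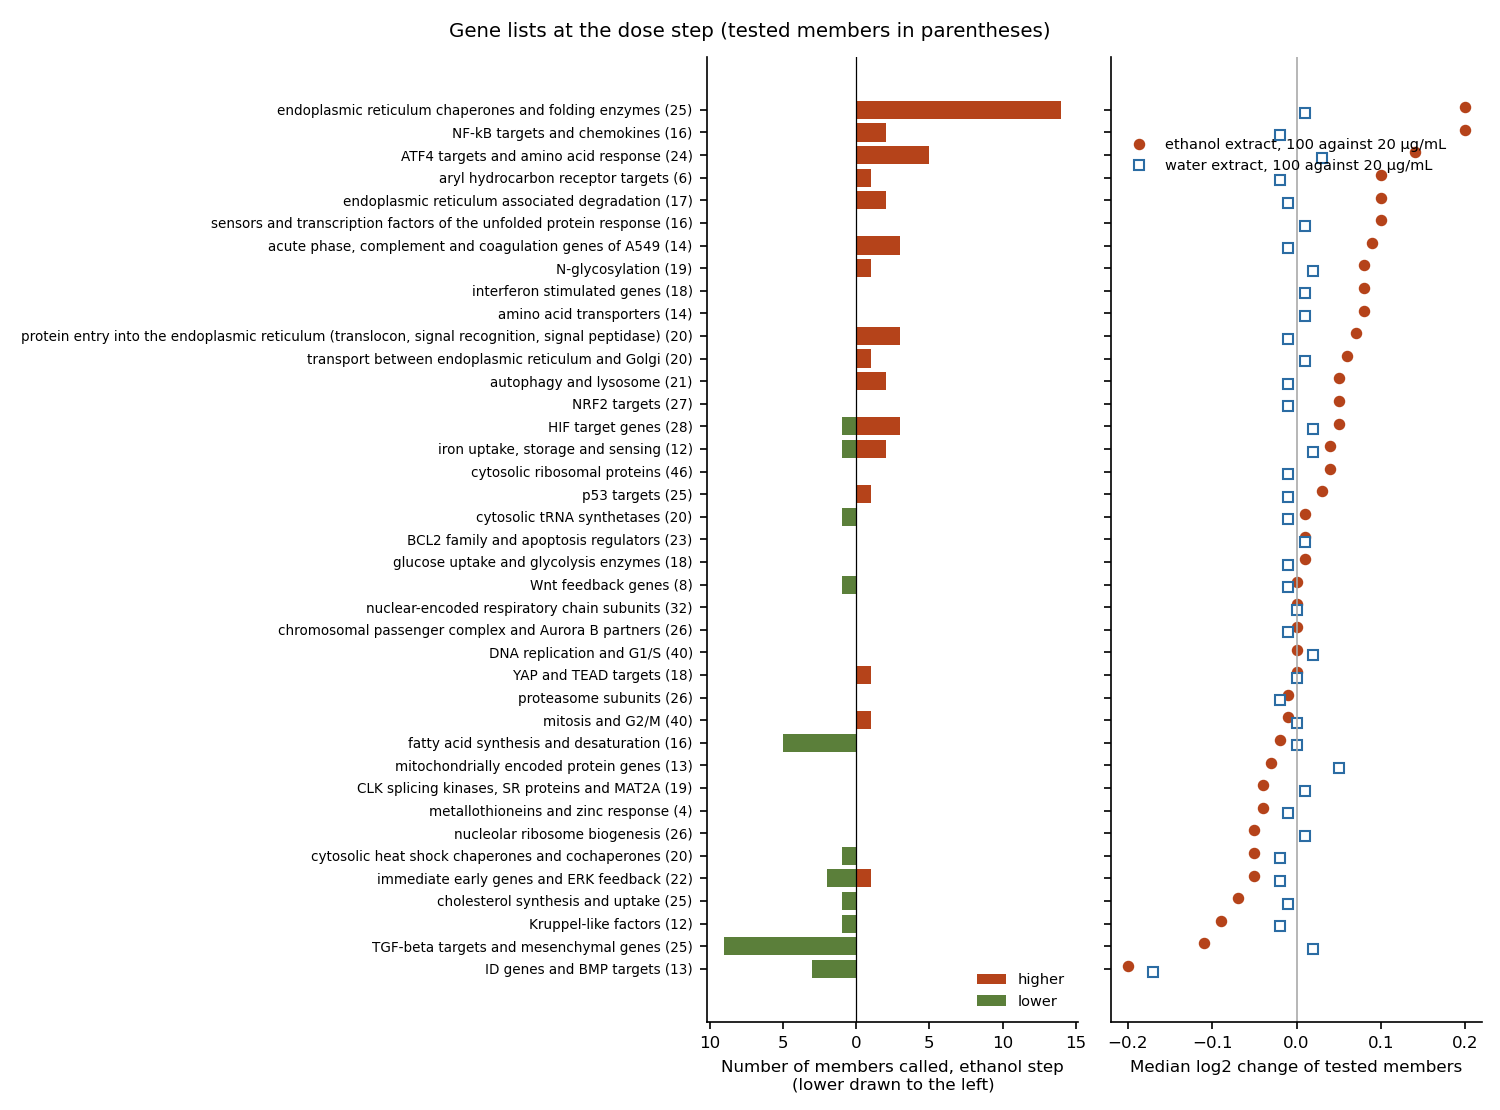
Left, number of members of each of 39 gene lists called higher (to the right) and lower (to the left) at 100 against 20 µg/mL of ethanol extract; right, median log2 change of the tested members at that step of the ethanol extract (filled) and of the water extract (open). The ER folding list (14 higher) and the TGF-beta list (9 lower) hold the longest bars, and the ID list has a low median in both extracts.

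The largest falls among protein-coding genes included ANPEP, a membrane aminopeptidase, at 4.16, 4.53 and 3.96 CPM, against 6.52, 6.48 and 7.57 CPM at 20 µg/mL (log2 -0.70 ± 0.09, edgeR adjusted p = 8.53e-05). PRTFDC1 stood at 7.94, 6.74 and 6.99 CPM, against 10.7, 11.5 and 11.8 CPM (log2 -0.65 ± 0.08, adjusted p = 4.45e-05). R3HDML (log2 -1.23), GYLTL1B (-0.92), SCNN1B (-0.82), HRNR (-0.76), PIK3AP1 (-0.65), FAM83A (-0.64) and LDLRAD4 (-0.61) all averaged under 5 CPM at 20 µg/mL. AC005943.2 was at 0 CPM in all 3 libraries at 100 µg/mL, against 1.09, 1.13 and 2.54 CPM. It and the clone-named RP11-298I3.5 and RP11-463D19.2 overlap other genes on their strand, so RSEM may have divided shared reads and their changes are uncertain.

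Among abundant genes, ANGPTL4, a secreted inhibitor of lipoprotein lipase, stood at 40.6, 43.8 and 40.2 CPM, against 58.6, 58 and 56.1 CPM at 20 µg/mL (log2 -0.47 ± 0.04, edgeR adjusted p = 8.8e-07). The secreted matrix protein CCDC80 stood at 165, 161 and 155 CPM, against 195, 198 and 208 CPM (log2 -0.32 ± 0.04, adjusted p = 8.67e-06). NRP2, a coreceptor for semaphorins and VEGF, stood at 167, 160 and 157 CPM, against 203, 208 and 216 CPM (log2 -0.37 ± 0.04, adjusted p = 1.19e-05). In each of these 3 genes the groups were separate.

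Genes of the Aurora B pathway named in the series title were not called at this step. None of 26 chromosomal passenger complex genes and Aurora B partners passed the test (median log2 0.00). With 1.79% of all genes called, a list of this size would hold few or no calls at that share. AURKB stood at 80.5, 84.6 and 87.4 CPM at 100 µg/mL, against 80.1, 84.5 and 82.7 CPM at 20 µg/mL, a log2 change of 0.03 with a 95% interval of -0.05 to 0.11 (edgeR adjusted p = 0.805). The intervals of INCENP, BIRC5 and CDCA8 ran from -0.11 to 0.10, from -0.07 to 0.09 and from -0.04 to 0.15. Of 40 genes of mitosis 1 was called, CDC25B, a phosphatase that activates CDK1, at 358, 382 and 373 CPM, against 305, 320 and 312 CPM (log2 0.25 ± 0.04, adjusted p = 0.000344). None of 40 replication genes passed.

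No member passed the test among 27 NRF2 targets, 18 interferon-stimulated genes, 46 cytosolic ribosomal proteins, 26 nucleolar genes, 26 proteasome subunits, 32 nuclear-encoded and 13 mitochondrially encoded respiratory genes, 18 glycolysis genes, 23 apoptosis regulators, 19 splicing kinase and SR protein genes or 4 metallothioneins. Of 28 HIF targets CA9, LOXL2 and P4HA1 rose and EGLN1 fell, with log2 changes of 0.67, 0.15, 0.19 and -0.20. Leaving out any 1 of the 6 libraries left 0 or 1 of the 3 rises called, and with those 6 libraries fitted alone none of the 4 genes was called (edgeR adjusted p of 0.118 to 0.293). Single members rose in 25 p53 targets (FAS, log2 0.38), 6 aryl hydrocarbon receptor targets (CYP1B1, 0.27) and 18 YAP targets (CRIM1, 0.12). Over all genes 0.837% were called higher and 0.949% lower. At those shares lists of these sizes would hold few or no calls, so an empty list says little about its genes. Of 20 cytosolic heat shock genes HSPE1, the mitochondrial chaperonin partner, fell by 0.20. SQSTM1, an autophagy receptor, rose by 0.17, and FGA, C1S and C3 by 0.21, 0.20 and 0.18 among 14 acute phase and complement genes.

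The water extract of the same root, at the same doses in the same batch, was set against this step. No member of any of the 39 lists was called at the water step. The 2 genes called were the selenoproteins GPX1, glutathione peroxidase 1, at 46.2, 46.2 and 43.6 CPM at 100 µg/mL against 67.9, 67.4 and 63.8 CPM at 20 µg/mL, and SEPW1, also called SELENOW. At the ethanol step GPX1 was at 49, 55.5 and 52.9 CPM, against 63.1, 65.9 and 57.8 CPM, and fell too (log2 -0.25 ± 0.06, edgeR adjusted p = 0.0348). The difference between the steps, ethanol minus water, was tested directly, and 46 genes passed (0.273%), 25 with a higher (0.148%) and 21 with a lower ethanol step. With the replicate block 75 passed, all 46 among them, and without replicate 3 of the ethanol 100 µg/mL group or replicate 2 of the water 100 µg/mL group 28.

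Of the ER folding list PDIA4, P4HB and HSP90B1 differed between the extracts, by log2 0.30, 0.24 and 0.27 (edgeR adjusted p = 0.00207, 0.00903 and 0.0164). Their water steps were 0.00, 0.02 and 0.01. PDIA4 was at 311 CPM on average at 100 µg/mL and 310 CPM at 20 µg/mL of water extract. COL4A1, PMEPA1 and LTBP2 of the TGF-beta list differed by -0.44, -0.25 and -0.35. ASNS differed by 0.36, JUN by -0.47, TFRC by 0.43, SLC40A1 by 0.40, CXCL5 by 0.53 and CDC25B by 0.27. Leaving out 1 library ended the call of the difference in some cases for HSP90B1, PMEPA1, LTBP2, TFRC, SLC40A1 and CDC25B. That of PDIA4, P4HB, COL4A1, ASNS, JUN and CXCL5 held under every alternative that gave an adjusted p. DESeq2 gave none for JUN and CXCL5.

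The largest positive differences among protein-coding genes were those of SPACA6, GABRE, CXCL5, C9orf3, AGR2 and TFRC. These 6 ranged from 0.94 to 0.43. GABRE averaged 80.4 CPM at 100 µg/mL and 82.8 CPM at 20 µg/mL of water extract, and its steps differed by 0.89 ± 0.06 (edgeR adjusted p = 2.94e-08). Of the noncoding transcripts that contain or flank microRNA genes, RP4-555D20.2, RP11-166D19.1 and MIR503HG differed by 0.77, 0.96 and 1.07. The water step of MIR503HG was -0.33, not called, and adds to its difference. For MIR17HG the difference was not called (0.65, edgeR adjusted p = 0.309). Among the largest negative differences were those of ANPEP, PRTFDC1, PDE11A, ANGPTL4 and JUN, from -0.76 to -0.47.

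For the ID genes no difference between the extracts was called. ID2, ID3 and ID4 had water steps of -0.25, -0.16 and -0.25, not called, and ethanol minus water differences of -0.02, -0.07 and -0.05 with standard errors of 0.07, 0.06 and 0.10 (edgeR adjusted p = 0.968, 0.847 and 0.943). ID2 averaged 94.9 CPM at 100 µg/mL and 113 CPM at 20 µg/mL of water extract. The medians of the list were -0.20 at the ethanol step and -0.17 at the water step.

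**Figure D4:**
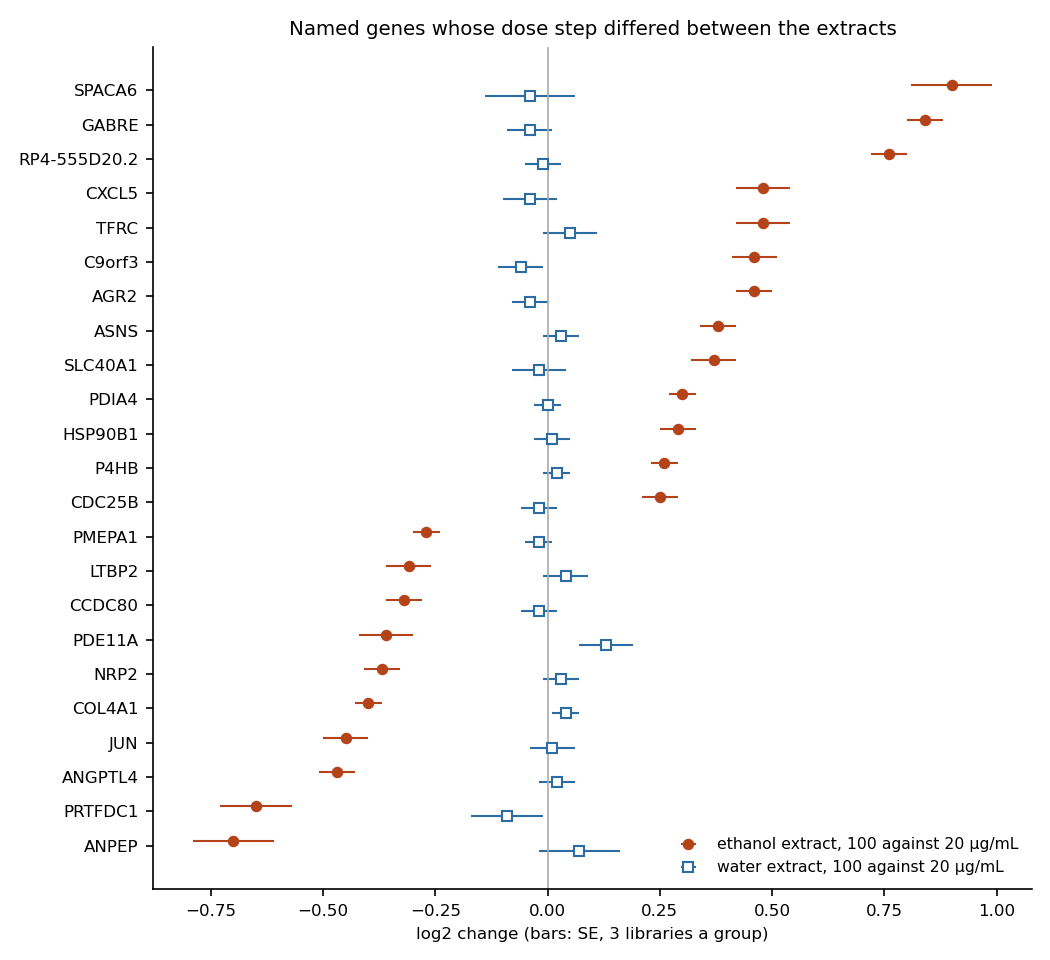
Log2 change at 100 against 20 µg/mL of ethanol extract (filled points) and of water extract (open squares) for the 23 genes named by the rule whose steps differed. Each group had 3 libraries, and bars show the standard error from the fit over all 21 batch 1 libraries. The water steps all lie between -0.09 and 0.13, and the ethanol steps between -0.70 and 0.90.

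The next ethanol step was of another size. At 500 against 100 µg/mL 11093 of 16854 genes passed (65.8%), 5504 higher (32.7%) and 5589 lower (33.2%). This comparison shares the 100 µg/mL libraries with the first step, so values of the 2 are only set side by side. The ER folding list, with 14 members higher and none lower at the first step, had 7 higher and 13 lower at the second. HSP90B1 averaged 959, 1170 and 520 CPM at 20, 100 and 500 µg/mL, HSPA5 639, 730 and 452 CPM, and PDIA4 308, 381 and 279 CPM. P4HB went on upward, at 607, 728 and 1060 CPM. In the water extract HSP90B1 averaged 970, 980 and 1110 CPM at the same doses.

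At the second step, where 65.8% of all genes were called, 10 of 16 sensors and transcription factors rose and 4 fell, and of 24 ATF4 targets 16 rose and 4 fell. ASNS averaged 73.4, 95.8 and 141 CPM over the 3 doses and NUPR1 8.74, 13 and 27.3 CPM. PMEPA1 (415, 344 and 432 CPM), ANGPTL4 (57.6, 41.5 and 226 CPM) and JUN (45.9, 33.5 and 92.5 CPM) were lowest at 100 µg/mL and highest at 500 µg/mL. COL4A1 (104, 78.5 and 71.8 CPM), CCDC80 (201, 160 and 60.4 CPM) and ID2 (109, 90.2 and 55.8 CPM) were lowest at the top dose.

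Among the transcripts that contain or flank microRNA genes, 4 were highest at the middle dose of ethanol extract. They were GABRE (81.8, 147 and 102 CPM), SPACA6 (9.11, 17 and 12 CPM), RP4-555D20.2 (66.3, 112 and 71.2 CPM) and C9orf3 (78.4, 108 and 81.2 CPM). With the water extract the same 4 were highest at 500 µg/mL, at 100.0, 13.4, 99.3 and 96.8 CPM. RP11-166D19.1, at 4.51, 7.78 and 12.2 CPM, was highest at the top dose of ethanol extract. Of 40 mitosis genes 38 fell and 1 rose at the second step, and of 26 Aurora B partners 21 fell and 1 rose, with AURKB at -0.77 (log2).

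**Figure D5:**
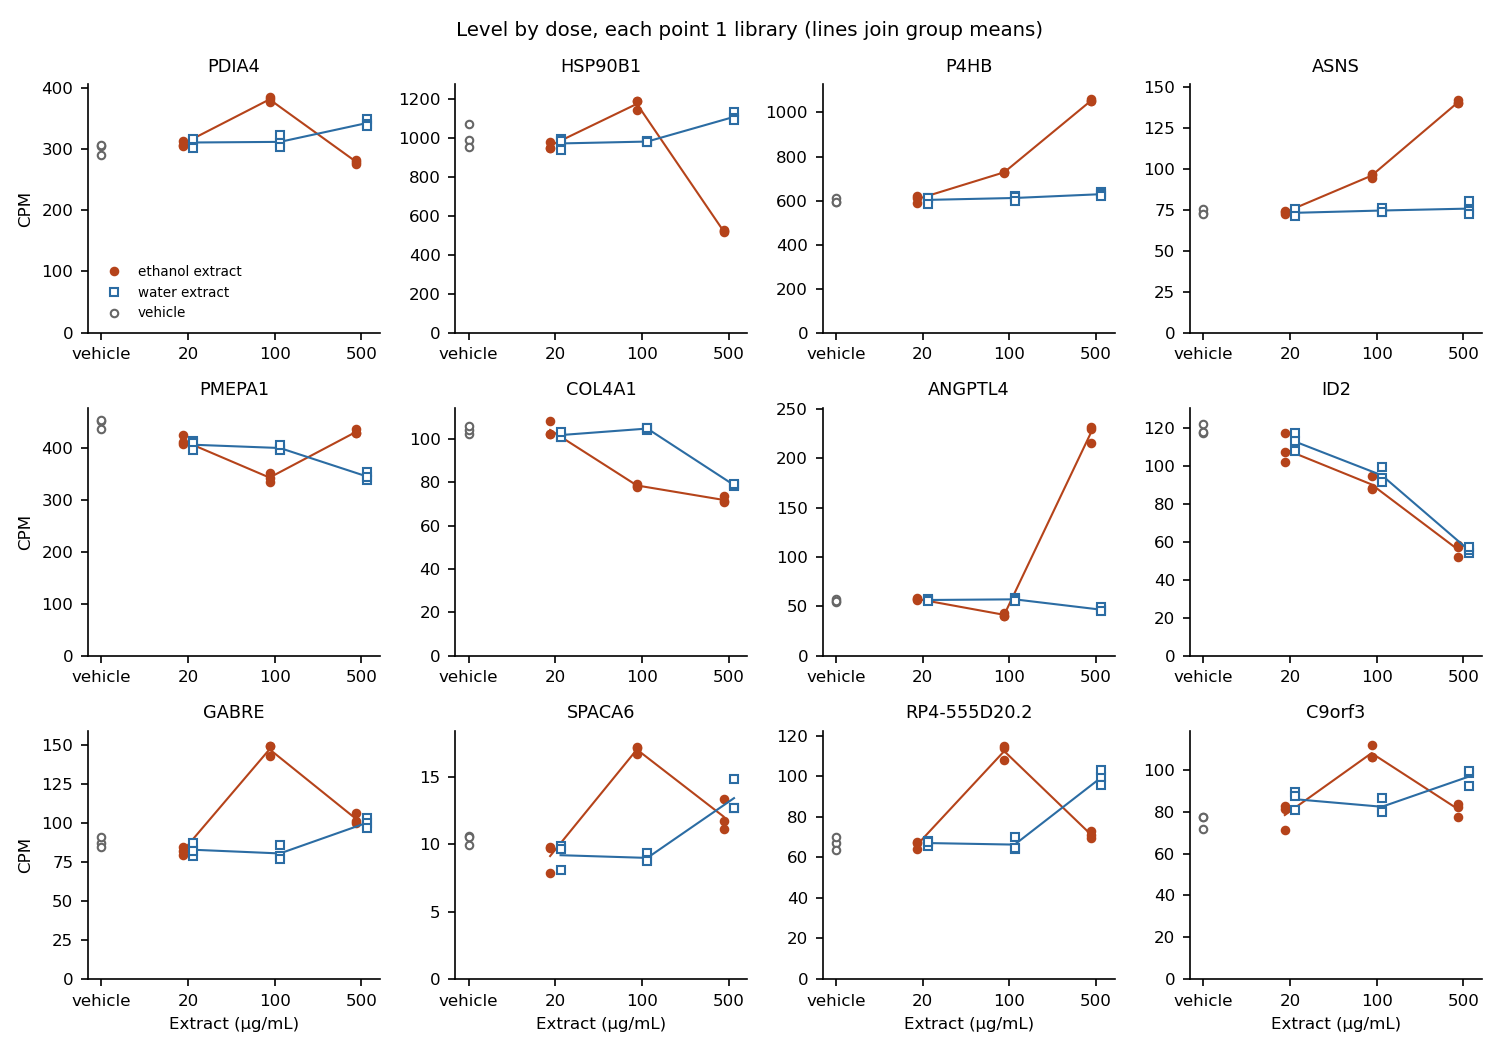
CPM of 12 genes in each vehicle, ethanol extract (filled) and water extract (open squares) library of batch 1, by dose in µg/mL, lines joining the group means of each extract. HSP90B1, GABRE, SPACA6 and RP4-555D20.2 peak at 100 µg/mL of ethanol extract, PMEPA1 and ANGPTL4 are lowest there among the ethanol doses, and ID2 falls along both extracts.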

How the data were processed

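Whole transcriptomes of A549 cells were sequenced, with libraries made by the MGIEasy RNA Directional kit per the labels' protocols. Per the submitters' processing notes, the tools were FastQC, Trim Galore, STAR and RSEM 1.3.3 and the build GRCh38 (hg38). The authors deposited RSEM expected counts per gene for all samples in a single table of 60675 genes. These are not normalised, and 89.9% of the values of batch 1 were whole. RSEM divides reads shared by overlapping or near-identical genes by estimate. The sources used here give no version of STAR, Trim Galore or FastQC, no annotation and nothing on the use of strand.

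Expected counts were rounded and fitted with edgeR 4.0.16 (limma 3.58.1, R 4.3.3): TMM normalisation, filterByExpr over the 7 groups, 1 quasi-likelihood model over all 21 batch 1 libraries, Benjamini-Hochberg adjustment over 16854 genes and a threshold of 0.05. The common biological coefficient of variation was 0.0444, with 14 residual degrees of freedom. The difference between extracts was a contrast in the same model. CPM used TMM library sizes. Gene positions came from GENCODE v29 (16744 of 16854 matched by ID), and promoters and microRNAs from RefSeq GRCh38.p14 (Python 3.11.15, matplotlib 3.10.9). The scripts were tested on simulated data. Counting error is larger in genes of low level, and not only in those near 1 CPM. MIR503HG, with 242 counts over the 3 libraries at 20 µg/mL, had an SE of 0.12 at the ethanol step. GABRE, with 5997 counts, had an SE of 0.04.

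Genes were named by a rule: the 12 largest rises and falls among called protein-coding genes of at least 1 CPM whose groups did not overlap, the 12 smallest p, up to 4 called members of each list, the 6 largest differences between extracts each way, and AURKB, INCENP, BIRC5 and CDCA8. Genes beyond it are other list members, the microRNA transcripts and processing genes, GPX1 and SEPW1, which were chosen after their values were seen. Some genes that the rule names are not reported here, and the text and plots leave them out. Members and lists were chosen with earlier results of these data known.

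Replicate numbers come from the sample titles. Over 9522 genes of at least 10 CPM, the deviations of same-numbered libraries from their group means correlated at 0.36, 0.33 and 0.287 (ethanol 100 and 20 µg/mL) and at 0.195, 0.13 and 0.351 (water 100 and 20 µg/mL), so the numbers were taken to pair them. Alternatives were other size factors, no filter on low counts, no mitochondrially encoded genes, the replicate block, fewer libraries, each replicate left out, and DESeq2 1.42.0. The other libraries of the series were not used here.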

Additional observations from a re-analysis of the deposited data

Results flagged for a closer look

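For 23 named genes the step from 20 to 100 µg/mL differed between the ethanol and the water extract in edgeR's test of the difference itself, and each value here is the ethanol step minus the water step on the log2 scale.

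The ethanol step was the higher for SPACA6 (0.94), GABRE (0.89), RP4-555D20.2 (0.77), CXCL5 (0.53), C9orf3 (0.52), AGR2 (0.51), TFRC (0.43), SLC40A1 (0.40), ASNS (0.36), PDIA4 (0.30), HSP90B1 (0.27), CDC25B (0.27) and P4HB (0.24). It was the lower for ANPEP (-0.76), PRTFDC1 (-0.56), ANGPTL4 (-0.49), PDE11A (-0.49), JUN (-0.47), COL4A1 (-0.44), NRP2 (-0.40), LTBP2 (-0.35), CCDC80 (-0.30) and PMEPA1 (-0.25). DESeq2 gave no adjusted p for some of these 23 differences, such as those of SPACA6, ANPEP, JUN and CXCL5. Under every alternative that gave one, 15 of the 23 passed the threshold. The others were lost under 1 or more, those of PRTFDC1 under 11 of 18, LTBP2 under 10 of 18, HSP90B1 and TFRC under 6 of 19 each, SLC40A1 under 5 of 18, CDC25B under 5 of 19, PDE11A under 2 of 18 and PMEPA1 under 1 of 19.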

How the results depend on the processing

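No called result changed sign under any alternative, while uncalled values near 0 did, such as the INCENP change (-0.06 to 0.05). Without a filter on low counts the ethanol step gave 480 genes, the water step 74 and the difference between them 188. The replicate block gave 516 and 75 for the ethanol step and the difference, and changed no other call of the named genes at the ethanol step. At the step from 100 to 500 µg/mL, where same-numbered libraries correlated at -0.0941 to 0.213 and share only a number, it gave 11320. A fit of the 12 libraries at 100 and 20 µg/mL with the block, added after seeing the data, gave 456 for the ethanol step and 4 for the water step. DESeq2 gave 345 for the ethanol step, 247 of them among the 301, and 4 for the water step. For the difference it gave 93, with 23 of them among the 46 of the main fit. Fitted on the compared groups alone, the ethanol step gave 78 genes, the ER folding list 9 and the TGF-beta list 5. Leaving out 1 library in turn gave 128 to 375 genes for the ethanol step, 1 to 2 for the water step, 28 to 55 for the difference, 9 to 12 for the ER folding list and 6 to 9 for the TGF-beta list. At the step from 100 to 500 µg/mL every alternative stayed within 1.5 times of 11093. Of 76 named genes called at the ethanol step, 27 passed under every alternative tried, among them PDIA4, HSP90B1, P4HB, CALR, ASNS, GABRE, SPACA6, COL4A1 and JUN, and 49 were lost under 1 or more, such as WISP1, C3 and CRIM1. The cause of these shifts was not tested.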

Other observations

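Further genes that differed between the extracts, all outside the lists' named members and chosen after their values were seen, included matrix and adhesion genes with a lower ethanol step: COL5A1, a fibrillar collagen chain (log2 -0.33 at the ethanol step, 0.03 at the water step), LTBP1, a latent TGF-beta binding protein (-0.22 and 0.03), the integrin activator FERMT1 (-0.28 and 0.11) and the adhesion protein VCL (-0.17 and 0.04). The CTP synthase CTPS1 was at -0.30 at the ethanol step and 0.00 at the water step. With a higher ethanol step stood BCLAF1 (0.39 and 0.01), NUCB2, a calcium-binding protein of the secretory pathway (0.33 and -0.02), the fatty acid transporter SLC27A2 (0.32 and -0.02) and RBCK1 (0.28 and 0.00). All 9 passed edgeR's test of the difference, with adjusted p between 0.00663 and 0.048. The long noncoding RNA NKILA differed by -0.72.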
